A study of Mus musculus with 24 samples.

Results

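The expression of 10 genes was examined in the surface RNA of 5 murine cell types and in the total RNA of blood mononuclear cells. Kit, Cd34, Flt3, Gata2 and Meis1 are known from hematopoietic stem and progenitor cells, and Mpo, Elane, Prtn3, Ctsg and Ms4a3 from the promyelocyte stage, when the primary granules of myeloid cells are made. The genes were taken as a list by name, by known role and not by a threshold on their values. They and the lists set beside them were chosen with earlier results of these data known. All 10 were among the 35001 gene names listed in all 5 surface tables and among the 55335 genes of the blood files.

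Surface RNA had been collected with AMOUR, in which intact fixed cells are held on lectin-coated beads and the RNA exposed outside is amplified in place by T7 RNA polymerase. There were 3 libraries for each of HSPCs (lineage-depleted bone marrow), monocytes (bone marrow, isolated by a monocyte kit), B cells, CD8 T cells and natural killer (NK) cells, the last 3 types from spleen. The surface libraries are labelled C57BL/6 and WT, their treatment label names only the amplification, and no age is given in the labels. Peripheral blood mononuclear cells (PBMCs) gave 9 total RNA libraries, all labelled wild type, with 3 for each of the treatment labels ct, WT and Y, which are not explained further. The study calls the surface libraries of a cell type biological replicates, but the labels do not say that libraries of 1 group came from separate animals, so the spread between them may be partly technical. In such bulk samples, fewer cells of a type and less RNA per cell cannot be told apart.

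Granule proteins are made in bulk at 1 short stage of myeloid development. Mpo encodes myeloperoxidase, which makes hypochlorous acid. Elane, Prtn3 and Ctsg encode the serine proteases neutrophil elastase, proteinase 3 and cathepsin G. Ms4a3 encodes a membrane protein used to mark granulocyte and monocyte progenitors. Among the other 5 genes, Kit and Flt3 encode receptor tyrosine kinases for stem cell factor and FLT3 ligand, Cd34 a sialomucin of the progenitor surface, and Gata2 and Meis1 transcription factors needed for stem cell maintenance. Kit also remains on mast cells and early erythroid cells, and Gata2 on mast cells, basophils and megakaryocytes.

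Positions are those of GENCODE M21 on GRCm38. Elane (chr10:79886247-79888215, plus strand) starts 3072 bases after the end of Prtn3 (chr10:79874476-79883174, plus strand), and Mpo (chr11:87793581-87804413, plus strand) and Ctsg (chr14:56099881-56102574, minus strand) stand apart from them. Ms4a3 is at chr19:11629496-11640851, minus strand. Kit (chr5:75574916-75656722, plus strand) and Flt3 (chr5:147330741-147400489, minus strand) share a chromosome, as do Mpo and Meis1 (chr11:18879817-19018985, minus strand). Cd34 is at chr1:194938819-194961279 and Gata2 at chr6:88193891-88207032, both on the plus strand.

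All 5 granule genes were called in the same direction in HSPCs against lymphocytes, so the sequence just before their start was read. The 250 bases before each RefSeq start in GRCm38.p6 were searched on both strands for 5 short motifs. GAGGAA, a core bound by the myeloid factor PU.1, was found before Mpo, Elane, Prtn3 and Ctsg, and among the other genes before Kit, whereas 23.3% of 32851 windows of the same length held it. The stretches of the granule genes that carry it are printed with the GAGGAA in capitals, 5′ to 3′ on the gene's strand, without bases that GENCODE places in an exon, which for Mpo leaves 47 of the 250. They lie at chr11:87793534-87793580 (Mpo), chr10:79886062-79886246 (Elane), chr10:79879417-79879613 (Prtn3) and chr14:56102575-56102824 (Ctsg, minus strand). The RefSeq start used for Prtn3, at 79879667, lies inside the longer GENCODE gene, so its window is within the gene as GENCODE places it.
Mpo: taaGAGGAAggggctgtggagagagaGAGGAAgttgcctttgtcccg
Elane: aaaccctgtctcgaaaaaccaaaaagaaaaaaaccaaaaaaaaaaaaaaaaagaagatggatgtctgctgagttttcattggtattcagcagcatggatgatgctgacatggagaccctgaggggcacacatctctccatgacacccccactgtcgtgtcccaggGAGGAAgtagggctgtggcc
Prtn3: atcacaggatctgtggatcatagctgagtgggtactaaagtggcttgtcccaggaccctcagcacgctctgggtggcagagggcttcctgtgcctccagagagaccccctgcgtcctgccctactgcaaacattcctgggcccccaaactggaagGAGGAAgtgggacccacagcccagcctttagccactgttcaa
Ctsg: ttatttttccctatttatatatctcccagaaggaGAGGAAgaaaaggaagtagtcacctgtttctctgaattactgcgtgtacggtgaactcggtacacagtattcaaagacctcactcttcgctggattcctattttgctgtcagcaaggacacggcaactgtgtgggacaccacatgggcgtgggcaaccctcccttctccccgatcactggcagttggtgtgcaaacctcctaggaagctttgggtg
TTNNGNAA, a C/EBP pattern, was found before Ms4a3 and Meis1, and before a second RefSeq start of Gata2 where it lies in an exon, against 36.8% of windows, and AACNG, a MYB pattern, before 8 of the 10 genes against 74.2%, with the matches of Mpo and Elane lying in an exon. The RUNX motif TGTGGT was found before Ctsg and Meis1 against 14.05% of windows. The GATA motif AGATAA was found before no gene of the list against 9.99%. A match describes these letters in this window and is neither a bound site nor a cause.

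TPM in these tables measures a share of a library, and most of a library was not messenger RNA. Protein-coding transcripts held 1.14 to 1.93% of the TPM in HSPCs, 16.9 to 18.1% in monocytes and 0.645 to 2.96% in B, T and NK cells. Each gene was therefore measured in TPM as deposited and as its coding share, which is the TPM of its protein-coding transcripts divided by the protein-coding TPM of the library, given in ppm. Monocyte libraries were sequenced on another platform with shorter reads than the other 12, so platform and cell type cannot be told apart for monocytes. Defining markers were present in each isolated type: B cell markers summed to between 194 and 306 TPM in B cells, T cell markers to between 23.4 and 67.2 TPM in T cells, NK markers to between 57.9 and 179 TPM in NK cells and monocyte markers to between 3497 and 4171 TPM in monocytes. In HSPCs each of the 3 lymphocyte lists summed to between 0.0427 and 0.991 TPM.

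**Figure D1:**
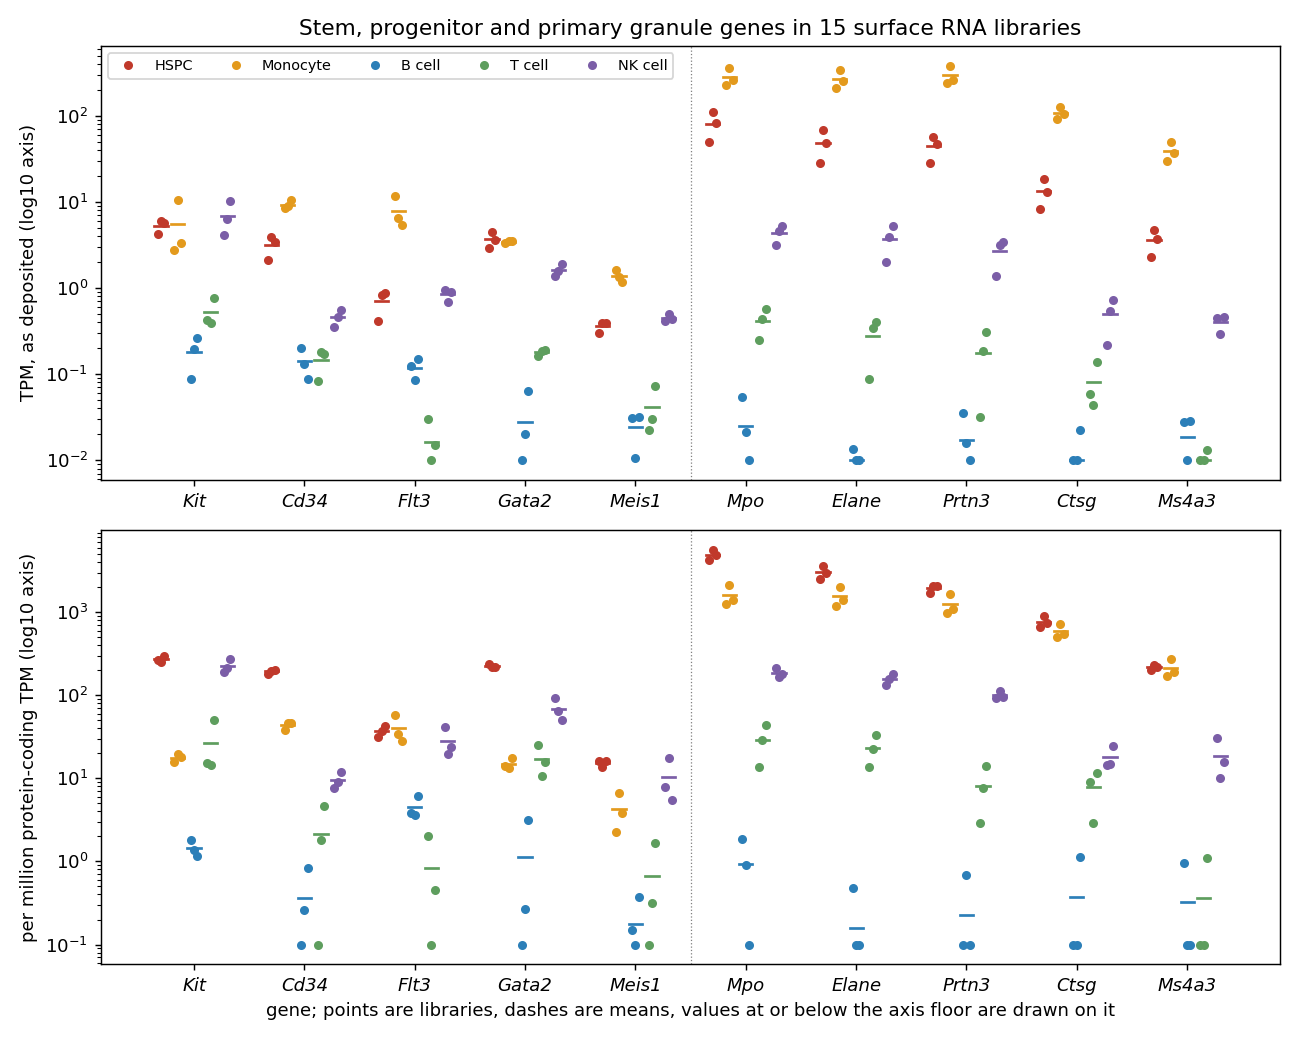
Level of each of the 10 genes in each of the 15 surface libraries, in TPM (upper panel) and as a coding share in ppm (lower panel), both on log10 axes with low values drawn on the floor, with cell types in colour, points for libraries and dashes for means. Mpo, Elane and Prtn3 were highest in monocytes in TPM and highest in HSPCs as a coding share, and Kit in NK cells overlapped HSPCs on both.

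In HSPCs the granule genes led the list. Mpo, the highest, was at 49.1, 109.7 and 82.5 TPM. Elane was at 28.7, 68.7 and 48.2 TPM and Prtn3 at 28.7, 57.4 and 47.6 TPM, which overlap each other. Ctsg, at 8.27, 18.4 and 13.1 TPM, lay below them in every library. Ms4a3, at 2.32, 4.73 and 3.70 TPM, lay among the stem genes. HSPC library 1 was the lowest for all 5 granule genes and library 2 the highest.

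Among the stem genes in HSPCs, Kit stood at 4.21, 5.99 and 5.68 TPM and Gata2 at 2.88, 4.47 and 3.65 TPM. Cd34 followed at 2.15, 3.96 and 3.40 TPM. The ranges of Kit, Gata2 and Cd34 overlap their neighbours. Flt3 was at 0.419, 0.824 and 0.873 TPM, and Meis1 lowest, at 0.301 to 0.394 TPM.

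On the coding scale the HSPC libraries came closer together. The coefficient of variation of the granule genes in HSPCs had a median of 37.7% in TPM and 14.4% as a coding share, and that of the stem genes 21.7% and 8.64%. Mpo was then at 4196, 5608 and 4942 ppm, rank 24 among all 17920 coding genes by mean. Elane ranked 42, Prtn3 76 and Ctsg 176, and the 5 granule genes together made 1.09% ± 0.156 (SD, n = 3) of the coding TPM. Kit (rank 464) was at 266, 249 and 296 ppm, Gata2 (rank 564) at 238, 217 and 219, and Cd34 (rank 693) at 181, 198 and 204. Flt3 and Meis1 stayed low, at 37.0 ± 5.81 and 15.4 ± 1.47 ppm (SD, n = 3).

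The comparison of HSPCs with lymphocytes, taken as the mean of B, T and NK cells, asked whether the list marks the progenitor preparation in the surface RNA libraries. In TPM 9 of the 10 genes were higher in HSPCs and none lower, where 6.78% of 13107 genes tested were called higher and 18.1% lower (limma on log2(TPM + 1), adjusted p below 0.05). That split of all genes moved with the scaling. Genes called higher made 27.3% of the calls in TPM as deposited, 55.5% under quantile normalization and 87.7% after rescaling without rRNA and 3 miRNA transcripts. Under both of the latter all 10 members were called higher, where 3735 of 13107 and 8726 of 16398 genes were. Mpo rose by 5.30 ± 0.23 (SE) on the log2 scale (limma adjusted p = 1.23e-08), Prtn3 by 4.76 ± 0.24 and Elane by 4.70 ± 0.27. Among the stem genes Cd34 rose by 1.72 ± 0.13 (limma adjusted p = 5.43e-07), Gata2 by 1.66 ± 0.11 and Kit by 1.39 ± 0.30. Flt3 did not pass, with a log2 difference of 0.40 ± 0.16 (limma adjusted p = 0.0909). Meis1, which passed with 0.24 ± 0.06, no longer did without HSPC library 2 (adjusted p = 0.0715) or 3 (adjusted p = 0.0824).

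As a coding share 8 genes passed the filter on low values, and Flt3 and Meis1 did not. Cd34 passed it only through its HSPC libraries, so its direction there was fixed by the filter. The other 7 were all higher in HSPCs, where 39.1% of 5286 genes were higher and 28.5% lower. With no filter all 10 were higher, where 20.9% of 17920 genes were, with Cd34 at 3.92 (limma adjusted p = 4.77e-10). The log2 differences ran from 2.64 for Kit and 3.05 for Gata2 to 6.18 for Prtn3, 6.31 for Elane and 6.84 for Mpo, while the median of all genes was 0.14.

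Markers of several other marrow cells were higher in HSPCs too. Of the markers tested as a coding share, 5 of 5 of megakaryocytes, 6 of 6 of erythroid cells, 10 of 10 of monocytes, 10 of 10 of neutrophils and 3 of 4 of mast cells and basophils were higher in HSPCs than in lymphocytes, where 39.1% of genes were. Of these, 1 megakaryocyte marker and 2 mast cell and basophil markers passed the filter only through HSPCs. In TPM 5 of 5, 3 of 8, 5 of 10, 9 of 12 and 4 of 5 were, where 6.78% of genes were. The mast cell marker Cma1 passed both filters only through NK cells, which fixed its direction. Of 3 dendritic cell markers tested, 1 was higher and 2 lower as a coding share, and 0 higher and 2 lower in TPM. Among them Ccr9 passed both filters only through T cells, and Itgax the coding-share filter only through NK cells, which fixed their direction. Megakaryocyte markers summed to 18.5 to 34.4 TPM in HSPCs against 0.127 to 8.05 TPM in lymphocytes. The part of these cells in the values of the 10 genes was not tested.

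The lymphocytes were not alike. In B and T cells no member reached 1 TPM in any library, the highest value being 0.775 TPM for Kit in T cell library 3. Mpo was at 0.0536, 0.0210 and 0 TPM in B cells and at 0.250, 0.438 and 0.564 TPM in T cells. For the 5 granule genes, Cd34 and Gata2, NK cells lay between the other lymphocytes and HSPCs in TPM, with Mpo at 3.20, 4.62 and 5.27 TPM and Elane at 2.00, 3.87 and 5.30 TPM, above every B and T library. Flt3 in NK cells, at 0.955, 0.681 and 0.897 TPM, overlapped HSPCs, and Meis1, at 0.415, 0.501 and 0.433 TPM, lay above them. As a coding share Meis1 overlapped, at 7.84, 17.7 and 5.50 ppm in NK cells against 13.7 to 16.3 ppm in HSPCs.

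Kit in NK cells did not follow the granule genes. It was at 4.10, 6.33 and 10.2 TPM, which overlaps HSPCs, and at 193, 210.4 and 272 ppm as a coding share against 249 to 296 in HSPCs. Against NK cells alone Kit differed from HSPCs by -0.26 ± 0.36 in TPM (limma adjusted p = 0.667) and 0.27 ± 0.26 as a coding share (limma adjusted p = 0.424). Flt3 (-0.12 ± 0.20) and Meis1 (-0.09 ± 0.08) did not pass in TPM. The other 7 genes were higher in HSPCs than in NK cells in TPM, where 0.855% of genes were, and so were, as a coding share, 6 of the 7 that did not pass the filter through HSPCs alone, where 23.2% were. Against B and T cells all 10 were higher in TPM, where 10.4% of genes were, with Kit at 2.22 ± 0.31.

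The genes most like Kit across the 15 libraries were Gfi1b (Pearson r = 0.991), Ces2g, Aqp1, Hk1 and Klf1 (r = 0.982), out of 5278 genes compared on the log2 coding share. Gfi1b and Klf1 encode transcription factors of the erythroid lineage and Aqp1 the water channel of red cells. Gfi1b is also on the list of other stem and progenitor genes read below. These correlations describe 15 libraries that share their cell types. The coding share of Klf1 averaged 254 ppm in HSPCs, 149 ppm in NK cells and 4.29 ppm in monocytes. Erythroid markers summed to 62.5 to 107 TPM in NK cells, with all 9 above 0, against 41.3 to 74.9 TPM for HSPCs and 1.09 to 15.8 TPM for B and T cells. Mast cell and basophil markers summed to 20.4 to 32.9 TPM in HSPCs and 1.82 to 5.32 TPM in NK cells, with Tpsb2 at 0 in both, and were all at 0 in B cells. These sums were largely made of different genes. Prss34 and Mcpt8 averaged 18.6 and 7.14 TPM in HSPCs and 0.356 and 0.111 TPM in NK cells. Cma1 went the other way, with means of 0.00283 TPM in HSPCs and 3.30 TPM in NK cells. Red blood cells had been lysed in all surface samples and NK cells isolated by a kit. The part of these cells in the Kit values was not tested. The genes most like Mpo were Ndufa9 (r = 0.989), Ssr1, Gp1ba, Cd63 and Idh2, of which Gp1ba encodes a platelet and megakaryocyte receptor and Cd63 a granule membrane protein.

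Monocytes against HSPCs compared the 2 marrow preparations, and the answer depended on the scale. In TPM 8 of the 10 genes were higher in monocytes, but so were 91.4% of all genes tested, with 0.900% lower, and the median of all genes lay 2.31 higher on the log2 scale. Flt3 and Meis1, among the 8, passed the TPM filter only through monocytes, so their direction was fixed by it. With no filter 8 of the 10 were higher as well, where 18372 of 35001 genes were. Genes called higher made 99.02% of the calls with the filter, and 51.5% under quantile normalization. As a coding share no member was higher, and 6 of the 8 tested were lower in monocytes, including Cd34, which passed the filter only through HSPCs, where 20.8% of genes were lower and 41.1% higher. There the share of calls that were higher was 66.4%, and 47.2% under quantile normalization. With no filter 7 of the 10 were lower, where 11.8% of genes were. Under quantile normalization of the TPM 0 members were higher and 5 lower, where 3413 of 13107 genes were higher and 3220 lower. Mpo was then at -1.27, Elane at -0.021, Ctsg at -0.31 and Ms4a3 at -0.16.

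Mpo, Elane and Prtn3 changed direction between the scales. Monocyte Mpo was at 228, 362 and 259 TPM, above every HSPC library, and at 1248, 2118 and 1409 ppm, below every one. Its log2 difference was 1.85 ± 0.29 in TPM (limma adjusted p = 2.08e-05) and -1.65 ± 0.25 as a coding share (limma adjusted p = 3.88e-05). Elane went from 2.52 ± 0.33 to -0.97 ± 0.22 and Prtn3 from 2.73 ± 0.30 to -0.69 ± 0.21. The Prtn3 call on the coding scale was lost without monocyte library 1 (adjusted p = 0.0628). Ctsg, at 92.9, 128 and 106 TPM in monocytes, rose by 3.00 ± 0.24 in TPM and did not pass as a coding share (-0.37 ± 0.21, adjusted p = 0.140). Ms4a3, at 30.3, 49.4 and 37.4 TPM, rose by 3.13 ± 0.20 in TPM and was at -0.06 ± 0.22 as a coding share (adjusted p = 0.822).

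Kit, Gata2 and Cd34 were lower in monocytes on the coding scale. So were 6 of 6 erythroid, 5 of 5 megakaryocyte and 3 of 4 mast cell and basophil markers, where 20.8% of genes were. Of these markers Gp1bb, Cpa3 and Mcpt8 passed the filter only through HSPCs. Monocyte markers were higher, 10 of 10, where 41.1% of genes were, with Fn1, Cx3cr1 and Cd14 passing only through monocytes. The part of these cells in the values of Kit, Gata2 and Cd34 was not tested. Kit fell by 3.34 ± 0.26 (limma adjusted p = 2.96e-08) and Gata2 by 3.24 ± 0.21, from 225 ± 11.4 ppm in HSPCs to 14.9 ± 2.15 in monocytes. Cd34 fell by 1.93 ± 0.15, from 194 ± 11.8 to 43.7 ± 4.54 ppm, and by 1.93 with no filter (limma adjusted p = 5.65e-07). In TPM Kit differed by -0.11 ± 0.36 and Gata2 by -0.05 ± 0.13, against the median of 2.31, and neither passed. Flt3 was at 11.6, 6.44 and 5.34 TPM in monocytes, a log2 difference of 2.31 ± 0.20 that equals the median of all genes and that the filter fixed in direction (with no filter, limma adjusted p = 8.06e-07), and at 40.2 ± 15.8 against 37.0 ± 5.81 ppm, ranges that overlap.

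**Figure D2:**
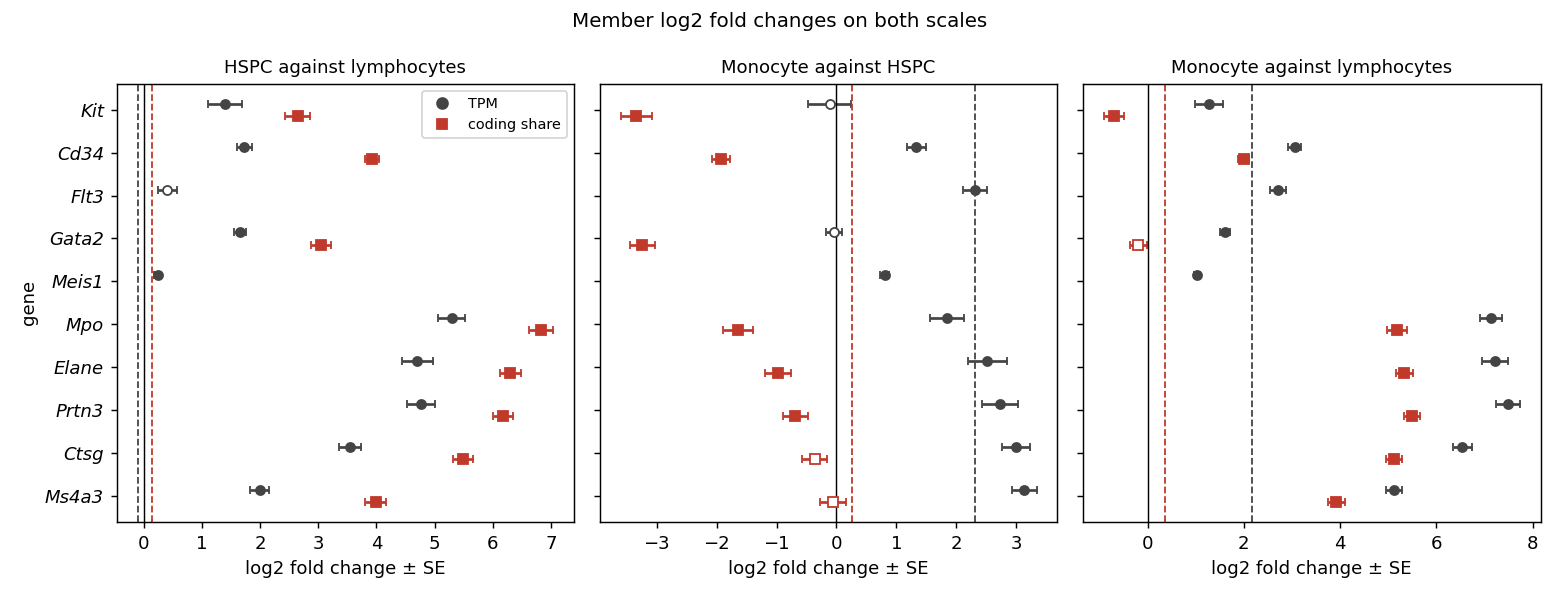
Log2 fold change ± SE of each gene in 3 comparisons, in TPM (grey circles) and as a coding share (red squares), filled where limma's adjusted p was below 0.05, with dashed lines at the median of all genes tested. In monocytes against HSPCs, Mpo is at 1.85 in TPM and -1.65 as a coding share.

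The shares of the granule genes among themselves do not depend on the total that scales a library, but they do depend on which transcripts are counted. Mpo made 41.9 to 42.4% of the summed TPM of the 5 genes in HSPCs and 28.1 to 28.6% in monocytes. Prtn3 made 23.7% ± 1.32 and 29.6% ± 1.04 (SD, n = 3), Ctsg 6.97% ± 0.209 and 11.04% ± 0.834, and Ms4a3 1.90% ± 0.0792 and 3.91% ± 0.146. Elane overlapped, at 25.3% ± 1.11 and 27.2% ± 0.791. With protein-coding transcripts alone Elane did not overlap, at 27.0 to 28.8% in HSPCs and 29.3 to 30.4% in monocytes. Counted that way Mpo made 45.2% ± 0.0523 and 30.6% ± 0.512, and Prtn3 18.1% ± 1.14 and 23.9% ± 0.305. The ratio of Mpo to Ms4a3 was 22.2 ± 1.03 in HSPCs and 7.25 ± 0.300 in monocytes, and the 2 groups did not overlap for it. With 3 libraries against 3 an exact permutation test cannot go below 0.10, and none was run. The granule genes exceeded the stem genes 14.1 ± 2.40 times in HSPCs, 36.1 ± 6.28 times in monocytes and 1.13 ± 0.159 times in NK cells, as sums of TPM.

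**Figure D3:**
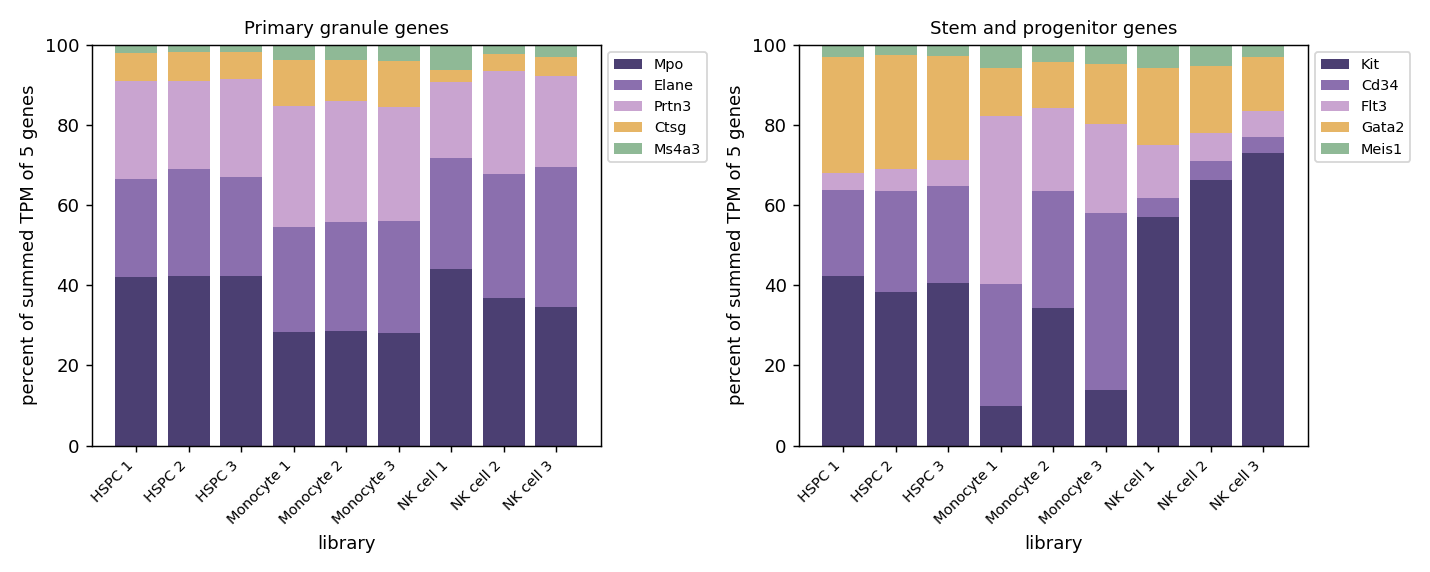
Share of each gene in the summed TPM of the 5 granule genes (left) and of the 5 stem and progenitor genes (right) in each library of HSPCs, monocytes and NK cells, in percent. Mpo takes 41.9 to 42.4% of the granule sum in HSPCs and 28.1 to 28.6% in monocytes.

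Monocyte libraries held other granulocyte messages too. A list of 12 neutrophil genes was read: Ltf, Camp, Ngp, Lcn2, Mmp8, Mmp9 and Cd177 of the later granules and their membranes, Itgb2l, an integrin, Ltb4r1 and Cxcr2, which encode receptors, and S100a8 and S100a9, cytosolic alarmins that monocytes also make. The list summed to 1716 to 1744 TPM in monocytes, all 12 above 1 TPM, against 13.4 to 65.4 TPM in HSPCs and 26.5 to 38.9 TPM in NK cells. S100a8 and S100a9 were the largest part of it in monocytes, with means of 443 and 481 TPM, and the granule genes Ngp and Camp had means of 265 and 201 TPM. On the coding scale 10 of the 10 tested were higher in monocytes than in HSPCs, where 41.1% of all genes were and 3 of the 10 passed the filter only through monocytes, with a median log2 difference of 1.88 against 0.25 for all genes. The part of neutrophils in the granule values of monocytes was not tested.

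Against lymphocytes, all 10 genes were higher in monocytes in TPM, as were 88.5% of genes tested, with 5.61% lower. Here too the direction of Flt3 and Meis1 was fixed by the filter. With no filter all 10 were higher as well, where 18503 of 35001 genes were. Under quantile normalization 4303 of 13107 genes were higher and 3784 lower, so genes called higher made 53.2% of the calls in place of 94.04%. There 7 members were higher, Kit was lower at -0.80, and Gata2 and Meis1, at -0.17 and -0.16, did not pass. As a coding share the 5 granule genes and Cd34 were higher, where 49.6% of genes were, with log2 differences from 2.00 for Cd34 and 3.92 for Ms4a3 to 5.50 for Prtn3. Kit was lower (-0.69 ± 0.21, limma adjusted p = 0.00867), where 22.0% of genes were, and Gata2 did not pass (-0.19 ± 0.17). Both values differed by reference, in comparisons added after the data were seen. Against B and T cells Kit was at 0.50 ± 0.23 (adjusted p = 0.0601) and Gata2 was higher by 0.54 ± 0.18 (adjusted p = 0.0150), in a comparison where 51.6% of genes were higher and 20.9% lower. Against NK cells alone Kit fell by 3.07 ± 0.26 and Gata2 by 1.64 ± 0.21, where 21.5% of genes were lower.

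Cd34, Mpo and Kit differed between HSPCs and monocytes in the transcripts that held their TPM. Cd34-201 held 59.3 to 62.3% of the Cd34 TPM in HSPCs and 9.11 to 22.4% in monocytes, whereas Cd34-202 held 33.9 to 38.6% and 58.2 to 77.1%. Both are protein-coding. Mpo-205, a minor coding transcript, held 2.28 to 3.12% of Mpo in HSPCs and 9.57 to 11.1% in monocytes, and Mpo-203 led in both types. Kit-204, also protein-coding, held 51.7 to 59.5% of Kit in HSPCs and 0 to 14.6% in monocytes. These groups do not overlap, but the platform and read length changed with them. Separation was not particular to these genes. Flt3-201 held 80.0 to 86.6% of its gene in HSPCs and 88.4 to 95.2% in monocytes. Prtn3-201 held 64.8 to 70.4% and 70.5 to 74.3%, and Gata2-201 and Ctsg-201 were apart too. Ms4a3-201 and Meis1-201 overlapped. The share of all transcripts that were apart was not worked out.

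Within monocytes, the Kit of library 2 was mostly made of other transcripts than that of libraries 1 and 3. Kit was at 2.78 and 3.35 TPM in monocyte libraries 1 and 3 and at 10.7 TPM in library 2, where retained-intron transcripts held 68.8% of it. The protein-coding Kit-201 alone was at 2.78, 1.77 and 3.24 TPM, and the coding share of Kit at 15.7, 19.7 and 17.9 ppm did not set library 2 apart. Without library 2, Kit was lower in monocytes than in HSPCs in TPM by 0.62 (limma adjusted p = 0.0462). HSPCs and NK cells split Kit alike, with Kit-204 at 55.2% and 53.1% and Kit-201 at 23.9% and 24.1% on average. Monocytes did not, with Kit-204 at 4.86% and Kit-201 at 71.1% on average. Retained-intron transcripts made 7.85% of the TPM of coding genes in HSPCs and 7.77% in monocytes. Above that on average lay Prtn3, Kit (20.8%) and Meis1 (25.0%) in HSPCs, and Prtn3, Kit, Meis1 (29.3%), Gata2 (24.2%) and Cd34 (17.7%) in monocytes. In Prtn3 it was mostly Prtn3-204, which held 25.9 to 29.5% of the gene in HSPCs and 21.2 to 24.8% in monocytes, while Elane has 1 listed transcript.

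**Figure D4:**
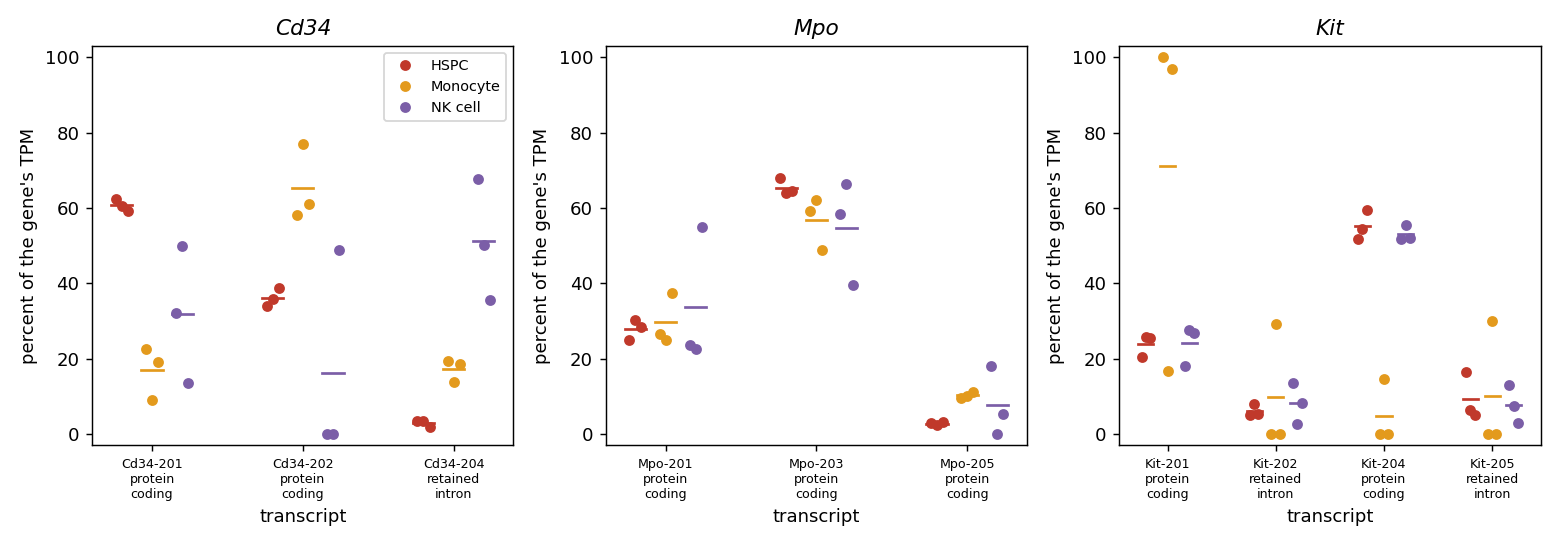
Percent of the TPM of Cd34, Mpo and Kit held by single transcripts in each library of HSPCs, monocytes and NK cells, with points for libraries and dashes for means. Cd34-201 leads in HSPCs and Cd34-202 in monocytes, and the retained-intron transcripts Kit-202 and Kit-205 hold 29.1% and 30.0% of Kit in monocyte library 2.

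The study takes a TPM above 50 as a surface hit, in some figures when reached in at least 1 sample. Here the mean of a cell type was used instead. In HSPCs a mean above 50 TPM was reached by 1 of the 47 transcripts of the 10 genes, Mpo-203 at 52.2 ± 18.5 TPM. Elane-201 lay just under it at 48.5 ± 20.0 TPM (SD, n = 3), with 68.7 TPM in library 2. In monocytes 6 reached it, from Prtn3-204 at 69.2 ± 19.9 to Elane-201 at 271 ± 66.6 TPM. None did in B, T or NK cells. Of all 149655 transcripts, 0.154% reached that mean in HSPCs, 0.597% in monocytes and between 0.214 and 0.239% in B, T and NK cells. The HSPC count rested on single libraries: without library 2 it was 0, with Mpo-203 at 43.2 TPM, and without library 1 it was 2, with Mpo-203 at 61.7 and Elane-201 at 58.4 TPM.

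Related genes were read from 2 lists. Of 25 other stem and progenitor genes, 18 were tested in TPM, and 13 were higher and 1 lower in HSPCs than in lymphocytes, where 6.78% of genes were higher and 18.1% lower, with a median of 0.68 against -0.11 for all genes. Adgrg1, an adhesion receptor of stem cells, was at 9.03 against 1.72 TPM, and Cdk6, a cell cycle kinase, at 7.64 against 2.12 TPM. Ly6a, which encodes Sca-1 and is also made by lymphocytes, was the 1 lower, at 0.168 against 4.68 TPM. In monocytes against HSPCs the list turned over with the scale. In TPM 14 of 18 were higher in monocytes and 1 lower, where 91.4% of genes were higher and 3 of the 18 passed the filter only through monocytes, with a median of 0.97 against 2.31. As a coding share 11 of 12 were lower and 0 higher, where 20.8% of genes were lower and 41.1% higher and 2 of the 12 passed only through HSPCs, with a median of -2.08 against 0.25. The coding-share difference was -3.97 ± 0.35 for Adgrg1, -3.36 ± 0.27 for Gfi1b and -2.96 ± 0.28 for Tal1, a hematopoietic transcription factor.

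Of 20 granule partners and myeloid regulators, 11 were higher and 2 lower in HSPCs than in lymphocytes in TPM, where 6.78% of genes were higher and 18.1% lower. On the coding scale 16 of 19 were higher and 1 lower, where 39.1% and 28.5% of genes were. Cebpa, the factor that starts granulocyte fate, was at 2.49 against 0.0963 TPM. Hk3, a myeloid hexokinase, was at 1.63 against 0.178 TPM. Ctsc, the protease that activates the granule serine proteases, was lower, at 0.982 against 6.40 TPM. Ctsc was higher in monocytes than in HSPCs on both scales, by 5.90 ± 0.27 in TPM and 3.86 ± 0.20 as a coding share (limma adjusted p = 2.52e-10). Fcnb and Igsf6 differed by 3.08 ± 0.18 and 3.03 ± 0.15 as a coding share, but they passed the filter only through monocytes, which fixed their direction. In all 14 of 19 were higher and 4 lower, where 41.1% and 20.8% of genes were, and 3 of the 19 passed the filter only through monocytes.

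In the total RNA of PBMCs the list was near its floor, except for Gata2. The libraries held 4686426 to 9055797 counts, of which 1 rRNA gene took 50.5 to 57.0%, and 3 counts, the limit that a count of 0 allows, correspond to 0.331 to 0.640 CPM, counts scaled to the library total. Elane, Ctsg and Ms4a3 had 1 count each over all 9 libraries, Prtn3 had 12 and Mpo 15. Kit had 2 to 9 counts per library, Flt3 1 to 9, Meis1 2 to 11 and Cd34 0 to 3.

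Gata2 alone passed the filter on low counts. The ct libraries had 52, 36 and 57 counts, those of WT 52, 45 and 43, and those of Y 31, 43 and 55. Their means were 6.18 ± 1.01, 5.57 ± 0.737 and 6.72 ± 1.04 CPM (SD, n = 3), ranges that overlap. Its log2 differences were -0.08 ± 0.16 for WT against ct, 0.07 ± 0.16 for Y against ct and 0.15 ± 0.16 for Y against WT (edgeR adjusted p = 0.916, 0.961 and 0.817). In WT against ct 0.765% of 11635 genes were called higher and 1.60% lower, in Y against ct 0.266% and 0.438%, and in Y against WT 0.438% and 0.817%. No member was called by edgeR or DESeq2 in any of the 3 comparisons, and Gata2 had no unadjusted p under 0.05. With no filter on low counts 1 of the 10 had one, Flt3, with 21 counts in the ct libraries together, 21 in WT and 7 in Y. Its log2 difference was -1.34 ± 0.65 for Y against ct (edgeR unadjusted p = 0.0396, adjusted p = 0.795) and -1.30 ± 0.65 for Y against WT (edgeR unadjusted p = 0.0456, adjusted p = 0.680). Mast cell and basophil markers, whose cells also make Gata2, summed to 10 to 24 counts per library.

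The list of neutrophil genes was not at the floor in the same libraries. Its sums ran from 722 to 1000 counts in ct, from 710 to 857 in WT, and from 1246 to 2036 for the Y libraries, and 8 of the 11 tested were higher in Y than in WT and 0 lower, where 0.438% of genes were higher, with a median log2 difference of 1.06. S100a8 and S100a9 differed by 2.01 ± 0.10 and 1.63 ± 0.10, and the granule genes Lcn2 and Ngp by 1.80 ± 0.16 and 0.82 ± 0.15. Of the other stem and progenitor genes, 4 of 15 tested were lower in WT than in ct and 0 higher, where 1.60% of genes were lower. Among them, Slamf1 and Angpt1 were lower by 0.74 ± 0.12 and 0.74 ± 0.17 on the log2 scale. Slamf1 was higher in Y than in WT, by 0.52 ± 0.12 (edgeR adjusted p = 0.0495), where 0.438% of genes were. Markers of other blood cells were lower in WT than in ct as well. These were 7 of the 7 erythroid markers tested (median log2 difference -0.78) and all 5 megakaryocyte markers (median -0.61), where 1.60% of genes were. Their part in these values was not tested.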

How the data were processed

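Surface tables hold TPM per transcript, which the authors estimated with Kallisto after trimming and removal of duplicates. The murine transcript set is not given in the sources used here, and the submitters' processing notes name mm10. TPM keeps no depth, so the depth of the surface libraries is unknown. The PBMC values are gene-level expected counts that the authors made with RSEM, rounded here to whole numbers. TPM were summed by gene name. Surface values were tested with limma 3.58.1 (trend, all 15 libraries in 1 fit) on log2(TPM + 1) for genes above 1 TPM in at least 3 libraries, and on log2(coding share + 10) for genes above 50 in at least 3. These fold changes understate the change of low genes. Counts were tested with edgeR 4.0.16 (quasi-likelihood, TMM, filterByExpr) and, as an alternative, DESeq2 1.42.0, in R 4.3.3. The SE of an edgeR fold change is the fold change over the square root of F. Benjamini-Hochberg adjustment covered all genes tested, with calls below 0.05. Other pseudocounts, filters, scalings, the replicate block and each library left out were tried. The tests were tried on simulated data.

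All 10 genes are named; from the 2 related lists, the genes named are among the 3 with the largest change among those called in a comparison; and the 5 genes most like Kit and Mpo, those of their groups with the highest mean TPM over the 15 surface libraries, by Pearson r. A gene that this rule names is not reported here. The genes and lists were chosen with earlier results of these data known. Positions and exons are from GENCODE M21 (GRCm38) and promoter sequences from RefSeq (GRCm38.p6), with all 10 genes matched by symbol. Intervals from counts cover counting error only.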

Additional observations from a re-analysis of the deposited data

How the results depend on the processing

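TPM keeps no depth, so low surface values have no counting limit, and 3 libraries a group limit every call. The scaling of TPM decided the direction in monocytes against HSPCs. Of 8 members called higher, Flt3 and Meis1 among them with a direction fixed by the filter, 0 were under quantile normalization, with 5 lower, and 3 after rescaling without rRNA and 3 miRNA transcripts, with 3 lower. Of all genes, 3413 of 13107 were higher and 3220 lower under quantile normalization. After rescaling 10885 of 16398 were higher and 857 lower. Under quantile normalization the log2 differences of Cd34, Flt3, Meis1, Mpo, Elane, Ctsg and Ms4a3 were -1.57, -0.16, -0.64, -1.27, -0.021, -0.31 and -0.16, and after rescaling those of Cd34, Meis1 and Mpo were -0.57, -0.19 and -0.33. The cause was not tested beyond these scalings. In monocytes against lymphocytes the share of all calls that were higher went from 69.3 to 47.1% as a coding share under quantile normalization. A filter above 10 TPM left 5 members to test, and 5 were called in each TPM comparison, but Ms4a3 passed it only through monocytes. With that filter 563 of 5122 genes were higher in HSPCs than in lymphocytes. In monocytes 4903 were higher than in HSPCs and 4635 higher than in lymphocytes. In monocytes against lymphocytes in TPM, quantile normalization called 1 lower and put Kit, Gata2 and Meis1 at -0.80, -0.17 and -0.16. As a coding share there, the 1 gene called lower became 0 with a pseudocount of 1, with Gata2 at 0.32, and 2 under quantile normalization. Of all 5286 genes, 1103 and 2004 were lower in these settings. The references added after seeing the data gave 2 lower against NK cells alone and 0 against B and T cells, with Kit at 0.50 and Gata2 at 0.54. Against NK cells alone in TPM, Kit was at -0.38 in monocytes, and Kit, Flt3 and Meis1 at -0.26, -0.12 and -0.091 in HSPCs. Among single genes, Flt3 in HSPCs against lymphocytes in TPM passed with a pseudocount of 0.1 (limma adjusted p = 0.000898) and in 4 other settings, and Kit (limma adjusted p = 0.116) and Meis1 did not with a pseudocount of 10. On the coding scale in monocytes against HSPCs, Prtn3 did not pass with a pseudocount of 1 (limma adjusted p = 0.122) or under quantile normalization, and Ctsg was lower with a pseudocount of 100 (limma adjusted p = 0.0206).

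With single libraries left out, members called higher in HSPCs in TPM ranged from 8 to 9, and members called lower in monocytes than in HSPCs from 0 to 1 in TPM (without monocyte library 2, Kit at -0.62) and from 5 to 6 as a coding share. Values that changed sign lay near 0: Kit at 0.19 and 0.09 without monocyte libraries 1 and 3 and Gata2 at 0.074 without HSPC library 2 in TPM, Ms4a3 at 0.070 and 0.0010 without monocyte libraries 1 and 3 as a coding share, and Gata2 in PBMCs at 0.0038, -0.0041 and -0.014 without ct libraries 3 and 2 and Y library 3. Same-numbered libraries correlated in their deviations above 0.1 in 6 of 30 pairs in TPM (r from -0.26 to 0.47) and 0 of 9 in PBMCs, so the numbers were not taken to pair samples, and the replicate block kept the member counts, at 9, 8 and 10 higher in TPM, 8 and 6 higher and 6 and 1 lower as a coding share, and 0 in PBMCs.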
